A study of Homo sapiens with 12 samples.

Results

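The canonical histone genes are the genes of the histone clusters that supply histone protein to newly replicated DNA. Their transcripts were followed through every probe set whose annotation gave 1 gene symbol of a cluster gene of the linker histone H1 (H1-1 to H1-6) or of the core histones H2A, H2B, H3 and H4 (symbols beginning H2AC, H2BC, H3C or H4C), or an older HIST symbol. This gave 51 probe sets of 45 genes, out of 54613 probe sets that were no array controls. Another 20 sets carried several histone symbols, up to 14 on 1 set, and are described apart. Of the 45 genes, 42 lie on chromosome 6, 2 on chromosome 1 and 1, H2BC12L, on chromosome 21. By class, H1 had 7 sets of 6 genes, H2A 11 of 9, H2B 15 of 14, H3 8 of 7 and H4 10 of 9. The sets for H2AC5P and H4C10P, 2 in all, belong to pseudogenes.

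H2A, H2B, H3 and H4 form the core particle around which DNA is wrapped, and H1 binds the DNA between particles. Canonical histone genes have no introns and are transcribed mainly in S phase, when NPAT, a coactivator driven by cyclin E and CDK2, acts at their promoters. Their mRNAs as a rule end in a stem-loop bound by SLBP in place of a poly(A) tail, and they are destroyed when DNA synthesis stops. Some of them, among them H1-2, H2AC6, H2BC5, H2BC12 and H2BC21, are also known to give polyadenylated transcripts. The mRNAs of 1 class are near copies of each other, so a probe set named for 1 gene may also read others.

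The cells were TC32 and TC71, established human lines of Ewing sarcoma, a bone and soft tissue tumour driven by an EWSR1 fusion protein. Each line was given 100 nM mithramycin, which sits in the minor groove of GC-rich DNA, or the solvent alone. RNA was taken after 6 h. Below, untreated lines are the control groups, which had the solvent and no mithramycin. Each of the 4 groups (TC32 with mithramycin, TC32 control, TC71 with mithramycin, TC71 control) had 3 biological replicates with 1 array each.

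Values are log2 levels from the deposited table, and a difference is mithramycin minus control of the same line ± its standard error from limma (3 arrays in each group). A set was called when limma's adjusted p was under 0.05, with the adjustment over all 54613 sets. The lowest correlation of arrays of 1 group was 0.995, and the array medians lay between 4.38 and 4.47. Markers of Ewing sarcoma cells were measured for 10 of 11 genes, and 9 had a level of at least 6 on every array. None of the blood, epithelial or endothelial markers reached 6 on every array, and 1 of 6 fibroblast markers did. With mithramycin, 1 of 6 fibroblast markers was called higher in TC32 and 3 in TC71. Of the blood, epithelial and endothelial markers, 2 of 4, 2 of 5 and 1 of 4 were called higher in TC32, and 0, 0 and 1 in TC71. Of the 10 Ewing sarcoma markers, 4 were called lower in TC32 and 5 in TC71, and none higher. The part of these changes in the results below was not tested. The difference between the 3′ and 5′ control sets of beta-actin, a measure of RNA integrity, was 0.51 to 0.67 on the TC32 mithramycin arrays and 0.67 to 0.74 on the TC32 control arrays. In TC71 it was 0.79 to 0.99 with mithramycin, and 2.0, 1.08 and 1.28 on control replicates 1, 2 and 3.

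Mithramycin raised a share of the histone sets in both lines, with genes of the H2B class at the front, and lowered almost none. In TC32, 19 of 51 sets (37.3%) were called higher and 0 lower, where 19.4% of all sets were called higher and 16.9% lower. In TC71, 20 sets (39.2%) were called higher and 1 lower, where 14.5% of all sets were called higher and 13.7% lower. At an unadjusted p under 0.05, limma gave 29 higher and 2 lower in TC32, and 25 and 1 in TC71. The share of all sets at that threshold was not computed, so these counts have no background to be read against. The median difference of the 51 sets was 0.21 in TC32 and 0.20 in TC71, beside 0.06 and 0.05 over all sets, and both medians stayed above 0 and above those of all sets under every scaling tried. Centred on the array's hybridization controls, which moved the median of all sets to -0.09 in TC32 and 0.14 in TC71, 7 histone sets were called higher and 2 lower in TC32 (5.29% and 21.2% of all sets) and 21 and 0 in TC71 (17.1% and 9.32%). Centred on the median of all sets, the counts were 15 and 2 in TC32 (13.8% and 18.7% of all sets) and 14 and 1 in TC71 (10.6% and 14.8%). The count of higher sets for TC71 was 13 without control replicate 1 (11.6% of all sets), the array with the beta-actin difference of 2.0. With that difference as a covariate it was 10, where 7.34% of all sets were called higher, and the median of the histone sets was 0.21. In bulk RNA, a shift in the share of cells in S phase and a shift in histone mRNA per cell cannot be told apart.

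The median level of the 51 sets was 4.15 to 4.27 on the TC32 mithramycin arrays, against 3.93 to 4.05 on the TC32 control arrays. In TC71 it was 4.32 to 4.48 with mithramycin, against 4.11 to 4.17 in controls. The groups did not overlap in either line, and neither did the array medians over all sets. Those were 4.41 to 4.47 with mithramycin against 4.38 to 4.40 in TC32 controls, and 4.41 to 4.44 against 4.38 to 4.39 in TC71. Set by set, all 3 mithramycin arrays lay above all 3 control arrays for 22 sets in TC32 (25.7% of all sets did so) and below them for 3 (19% of all sets). In TC71 they lay above for 26 sets (26.4% of all sets) and below for 2 (18.7% of all sets).

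Of the 51 sets, 13 sets of 12 genes were called higher in both lines, 6 in TC32 with no call in TC71, and 7 in TC71 with no call in TC32. Over all sets these shares were 9.29%, 10.1% and 4.83%. None of those 13 sets with a call in 1 line differed between the lines by the test of the difference. In both lines 24 sets were not called, and 40 had a positive difference in both. The shares of all sets for these counts were not computed, and the median over all sets was itself above 0 in each line. Across the 51 sets the differences in TC71 and TC32, which have separate controls, correlated at 0.73 (Pearson) and 0.65 (Spearman). This describes sets that share sequence and arrays, and it carries no p. The plot of both differences shows H2BC21 alone at the upper right and H1-4 at the lower left.

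**Figure D1:**
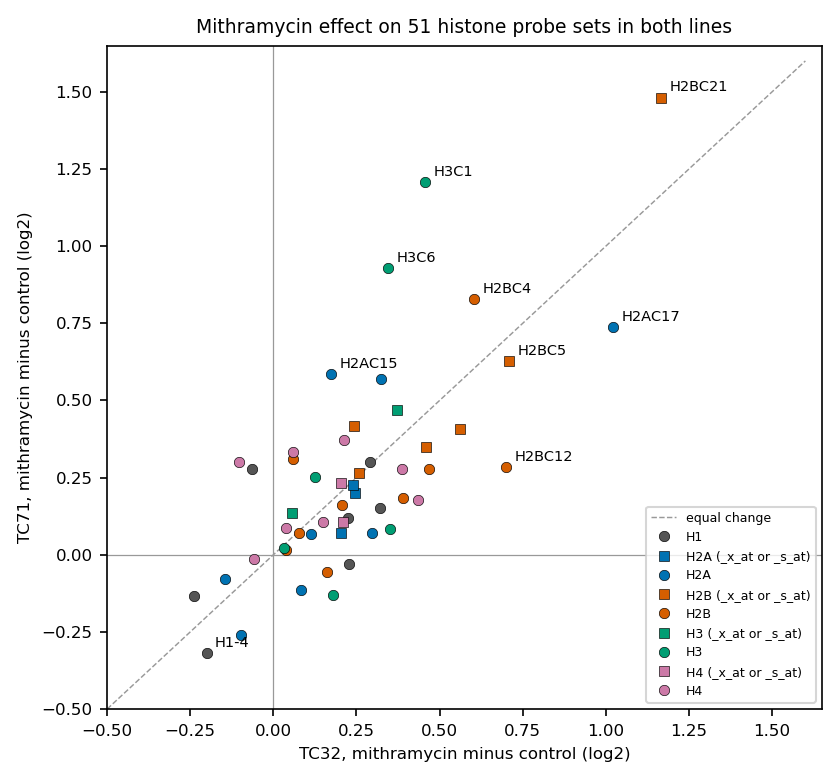
Each point is 1 of the 51 histone probe sets, with its mithramycin minus control difference in TC32 on the x axis and in TC71 on the y axis (log2), coloured by histone class and square where the set ID ends in _x_at or _s_at. H2BC21 lies at 1.17 and 1.48, H2AC17 at 1.02 and 0.74, and H3C1 at 0.46 and 1.21, while H1-4 lies at -0.20 and -0.32.

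Promoters of 4 genes are shown because these genes mark the range of the response: H2BC21, H2AC17 and H3C1, each changed by 1 or more on the log2 scale in at least 1 line, and H1-4, the 1 gene called lower. The sequences are RefSeq's for build GRCh38.p14, 250 bases before to 50 after the annotated start, 5′ to 3′ on the gene's strand. Capitals mark any match, on either strand, to the octamer known from H2B promoters (ATTTGCAT), to a TATA box (TATAAA), to a CCAAT box, or to a GC box, the GC-rich site that Sp factors bind (GGGCGG). H2BC21 is at chr1:149886633-149886932 (minus strand), H2AC17 at chr6:27893136-27893435 (minus strand), H3C1 at chr6:26020201-26020500 (plus strand) and H1-4 at chr6:26156079-26156378 (plus strand).
H2BC21: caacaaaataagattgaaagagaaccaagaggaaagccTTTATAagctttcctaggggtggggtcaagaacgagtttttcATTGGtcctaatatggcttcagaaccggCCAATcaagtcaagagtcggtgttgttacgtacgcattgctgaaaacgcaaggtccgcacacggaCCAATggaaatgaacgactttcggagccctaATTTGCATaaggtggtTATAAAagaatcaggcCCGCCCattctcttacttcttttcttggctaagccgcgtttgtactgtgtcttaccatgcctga
H2AC17: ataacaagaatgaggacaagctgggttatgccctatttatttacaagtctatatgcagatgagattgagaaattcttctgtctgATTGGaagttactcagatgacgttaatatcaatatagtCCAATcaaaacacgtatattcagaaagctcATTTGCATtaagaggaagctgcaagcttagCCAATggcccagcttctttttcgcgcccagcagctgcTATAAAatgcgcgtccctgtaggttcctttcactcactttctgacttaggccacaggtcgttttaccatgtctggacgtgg
H3C1: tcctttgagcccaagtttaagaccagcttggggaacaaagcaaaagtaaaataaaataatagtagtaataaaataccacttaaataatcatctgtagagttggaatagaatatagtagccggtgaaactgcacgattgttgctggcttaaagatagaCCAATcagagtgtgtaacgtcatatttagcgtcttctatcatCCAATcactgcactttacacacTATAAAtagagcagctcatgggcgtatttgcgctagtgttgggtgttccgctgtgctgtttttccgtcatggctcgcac
H1-4: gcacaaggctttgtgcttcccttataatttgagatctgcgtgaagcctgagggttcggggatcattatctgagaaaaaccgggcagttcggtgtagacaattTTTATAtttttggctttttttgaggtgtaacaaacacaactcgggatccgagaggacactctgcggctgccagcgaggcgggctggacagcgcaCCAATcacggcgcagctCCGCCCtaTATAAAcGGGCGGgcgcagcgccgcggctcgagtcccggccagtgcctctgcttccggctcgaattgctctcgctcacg

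With the annotated start as position 0, a TATA box on the gene's strand began at -30 in H2BC21, -31 in H2AC17 and -29 in both H3C1 and H1-4. The octamer began at -46 in H2BC21 and at -98 in H2AC17. The H1-4 promoter had a GC content of 56.0% and held 2 GC boxes, on both sides of its TATA box. H3C1, at 40.0% GC, and H2AC17, at 42.0% GC, held none, and H2BC21, at 45.0%, held 1 at -14.

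The class with most calls was H2B. Of its 15 sets, 10 were called higher in TC32 and 9 in TC71, 8 of them in both lines, where 19.4% and 14.5% of all sets were called higher. None was called lower, where 16.9% and 13.7% of all sets were. Its median difference was 0.39 in TC32 and 0.28 in TC71. Of the H2B sets called in both lines, only those of H2BC12 and H2BC4 end in neither _x_at nor _s_at, endings that mark shared probes. The class was also bright: 6 of its 15 sets had a mean level of at least 6, where 11 of all 51 did. The parts of shared probes and of level in the lead of this class were not tested.

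H2BC21 (older symbol HIST2H2BE), an H2B gene of the small cluster on chromosome 1, changed most. It had levels of 4.73, 4.56 and 4.62 on the TC32 mithramycin arrays, against 3.61, 3.32 and 3.47 on the control arrays. In TC71 the levels were 5.93, 5.85 and 6.08 with mithramycin, against 4.28, 4.62 and 4.52 in controls. The groups were well apart in both lines. The difference was 1.17 ± 0.10 in TC32, or 2.24-fold (adjusted p = 1.4e-06), and 1.48 ± 0.10 in TC71, or 2.79-fold (adjusted p = 2.46e-07). Its 1 set ends in _s_at.

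H2BC4 had 4.54, 4.78 and 4.68 with mithramycin in TC32, against 4.21, 3.93 and 4.05 in controls. In TC71 it had 6.85, 6.66 and 7.03 with mithramycin, against 6.01, 5.99 and 6.05 in controls. It rose by 0.60 ± 0.10 in TC32 (adjusted p = 3.83e-04) and by 0.83 ± 0.10 in TC71 (adjusted p = 3.55e-05), with no overlap of groups in either line.

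H2BC5 was read by 2 _x_at sets. The first had 6.79, 6.72 and 6.82 with mithramycin in TC32, against 6.21, 5.91 and 6.08 in controls, and 8.40, 8.57 and 8.45 with mithramycin in TC71, against 7.89, 7.84 and 7.81 in controls. It rose by 0.71 ± 0.08 in TC32 and 0.63 ± 0.08 in TC71 (adjusted p = 1.55e-05 and 6.22e-05). The second rose by 0.24 ± 0.08 and 0.42 ± 0.08. The sets of this gene moved the same way by unequal amounts.

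H2BC12 had 8.70, 8.98 and 8.86 with mithramycin in TC32, against 8.15, 8.22 and 8.07 in controls. In TC71 it had 10.10, 10.12 and 10.11 with mithramycin, against 9.85, 9.83 and 9.79 in controls. It rose by 0.70 ± 0.08 in TC32 (adjusted p = 8.98e-06) and by 0.28 ± 0.08 in TC71 (adjusted p = 0.0126). No group overlapped its own control, and the 3 TC71 mithramycin arrays lay within 0.02 of each other. H2BC12L, its relative on chromosome 21, rose by 0.56 ± 0.07 in TC32 and 0.41 ± 0.07 in TC71 through an _x_at set.

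Among the other H2B genes, H2BC6 and H2BC9 rose in both lines, by 0.46 and 0.26 in TC32 and by 0.35 and 0.27 in TC71. H2BC15 and H2BC3 were called in TC32 (0.47 and 0.39) and H2BC17 in TC71 (0.31). H2BC1, the gene of a testis H2B, had levels between 1.72 and 2.10 on all 12 arrays and differences of 0.08 and 0.07, neither called. The sets that named H2BC11, H2BC13 or H2BC14 alone were not called in either line. Sets shared by H2BC11 and H2BC8 were called higher in TC32 (1.13 and 0.55) and not in TC71 (0.24 and 0.02). The set with 1.13 was dim, with a mean level of 2.82.

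**Figure D2:**
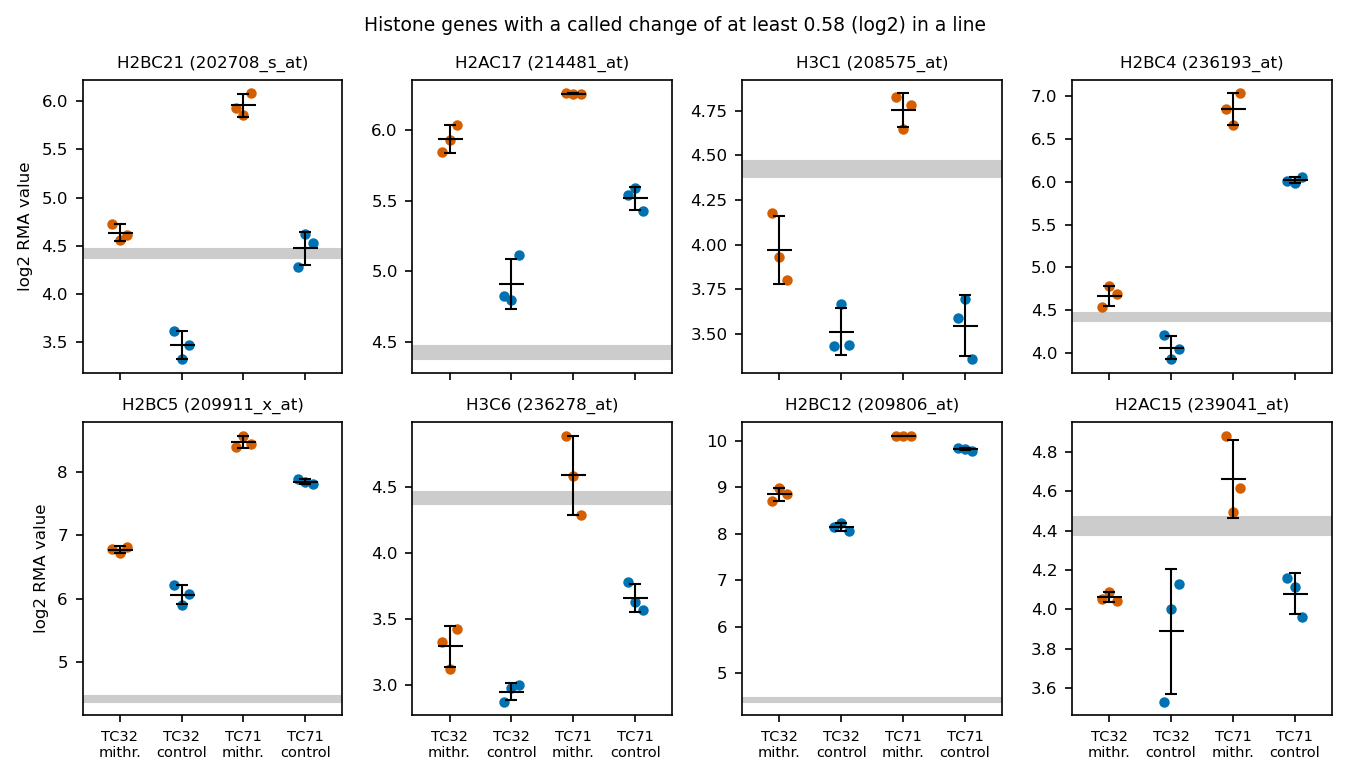
Log2 levels of the 8 histone probe sets whose gene had a called change of at least 0.58 in a line: points are arrays (3 per group), bars give the group mean ± SD, and the grey band spans the medians of the 12 arrays. Mithramycin groups stand left of their control in each line, and the y axes differ between panels. H2BC21, H2AC17, H3C1, H2BC4, H2BC5 and H2BC12 lie above their controls in both lines without overlap, while the H2AC15 set overlaps its control in TC32.

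In the H2A class, 3 of 11 sets were called higher in TC32 and 4 in TC71, beside 19.4% and 14.5% of all sets. H2AC17 (HIST1H2AM) had levels of 5.84, 5.93 and 6.03 with mithramycin in TC32, against 4.82, 4.80 and 5.12 in controls. In TC71 it had 6.26, 6.26 and 6.25, against 5.54, 5.59 and 5.43 in controls. It was higher on every mithramycin array, by 1.02 ± 0.09 in TC32, or 2.03-fold (adjusted p = 1.24e-06), and by 0.74 ± 0.09 in TC71, or 1.67-fold (adjusted p = 3.3e-05).

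H2AC25 (HIST3H2A), on chromosome 1, had 6.62, 6.42 and 6.63 with mithramycin in TC32, against 6.30, 6.16 and 6.24 in controls, and 7.55, 7.63 and 7.63 in TC71, against 7.04, 7.06 and 7.0 in controls. It rose by 0.32 ± 0.07 (adjusted p = 0.00323) and 0.57 ± 0.07 (adjusted p = 5.15e-05). A second set of this gene, an _x_at set with a mean level of 3.42, gave 0.20 and 0.07 and was not called. H2AC14 rose by 0.24 and 0.20.

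The 2 sets of H2AC15 disagreed. One gave 4.88, 4.49 and 4.62 in TC71 with mithramycin, against 4.16, 4.11 and 3.96 in controls, a rise of 0.59 ± 0.14 (adjusted p = 0.00578), and 0.17 ± 0.14 in TC32, not called. The other gave -0.15 ± 0.08 in TC32 and -0.08 ± 0.08 in TC71, neither called. H2AC6, H2AC4, H2AC8, H2AC16 and the H2AC5P pseudogene set were not called in either line.

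In the H3 class, 4 of 8 sets were called higher in each line, beside 19.4% and 14.5% of all sets. H3C1 (HIST1H3A) had 4.18, 3.93 and 3.80 with mithramycin in TC32, against 3.43, 3.67 and 3.44 in controls. In TC71 it had 4.83, 4.65 and 4.78, against 3.59, 3.69 and 3.36 in controls. It rose by 0.46 ± 0.11 in TC32 (adjusted p = 0.00629) and by 1.21 ± 0.11 in TC71, or 2.31-fold (adjusted p = 3.41e-06), without overlap of groups in either line. All of its control arrays lay below the array medians, and the TC32 call was lost with values centred on the hybridization controls (0.30).

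H3C6 was read by 2 sets, and both were called higher in TC71. The first had 3.33, 3.12 and 3.43 with mithramycin in TC32, against 2.87, 2.98 and 3.00 in controls, and 4.89, 4.59 and 4.29 in TC71, against 3.78, 3.63 and 3.57 in controls. Its differences were 0.34 ± 0.13 in TC32, not called, and 0.93 ± 0.13 in TC71 (adjusted p = 1.18e-04). The second gave 0.13 ± 0.08 and 0.25 ± 0.08. H3C2 rose in TC32 by 0.37 and in TC71 by 0.47. H3C3 and H3C7 were called in TC32 (0.35 and 0.18). H3C8, chosen because its set had the highest mean of the H3 sets, had 5.41, 5.36 and 5.37 with mithramycin in TC32, against 5.18, 5.30 and 5.49 in controls, and its groups overlapped in both lines.

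In the H4 class, 2 of 10 sets were called higher in each line, near the 19.4% of all sets in TC32 and the 14.5% in TC71: H4C1 and the pseudogene set H4C10P in TC32 (0.44 and 0.39) and H4C5 and H4C9 in TC71 (0.33 and 0.37). The H4C10P set had levels of 2.07 to 2.67 in TC32. H4C11, chosen by the same rule, gave 0.21 ± 0.10 in TC32 and 0.10 ± 0.10 in TC71, neither called, and its groups overlapped in both lines.

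Of 7 sets of the linker histone H1, 0 were called higher in TC32 (19.4% of all sets) and 1, H1-3, in TC71 (14.5% of all sets). With so few sets, these counts are near the shares over all sets. H1-3 rose in TC71 by 0.28 ± 0.08 (adjusted p = 0.0256). No H1 set was called lower in TC32. H1-4 (HIST1H1E) had 4.21, 4.42 and 4.43 with mithramycin in TC32, against 4.59, 4.52 and 4.56 in controls, and 4.79, 4.87 and 4.92 in TC71, against 5.31, 5.11 and 5.11 in controls. All mithramycin arrays lay below all control arrays in both lines, by -0.20 ± 0.08 in TC32 (adjusted p = 0.0683, not called) and -0.32 ± 0.08 in TC71 (adjusted p = 0.00916). H1-2, chosen by the same rule, gave -0.24 ± 0.10 in TC32 and -0.13 ± 0.10 in TC71, neither called. Whether H1 and core classes differ was not tested.

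Of the 20 sets with several symbols, 10 in each line were called higher (19.4% of all sets in TC32 and 14.5% in TC71) and 1 lower (16.9% and 13.7%), and their median difference was 0.40 in TC32 and 0.33 in TC71. A set with 10 H3 symbols had 4.84, 4.83 and 4.96 with mithramycin in TC32, against 3.69, 4.11 and 3.83 in controls, and 6.61, 6.66 and 6.53 in TC71, against 5.54, 5.66 and 5.67 in controls. It rose by 1.0 ± 0.10 in TC32 (adjusted p = 3.41e-06) and 0.98 ± 0.10 in TC71 (adjusted p = 5.92e-06). Of 3 sets shared by H2AC18 and H2AC19, neighbours on chromosome 1 with near-identical sequence, the brightest had 7.79, 7.91 and 8.06 in TC32 with mithramycin, against 7.04, 7.11 and 7.08 in controls, and 9.18, 9.17 and 9.22 in TC71, against 7.99, 7.90 and 7.98 in controls. It rose by 0.84 ± 0.07 and 1.23 ± 0.07 (adjusted p = 1.12e-06 and 5.67e-08).

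The 1 set of this kind called lower in both lines carried 14 H4 symbols. It had 12.09, 12.10 and 12.10 in TC32 with mithramycin, against 12.27, 12.30 and 12.31 in controls, and 12.18, 12.14 and 12.14 in TC71, against 12.34, 12.33 and 12.36 in controls. The groups did not overlap, and the difference was -0.20 ± 0.05 in TC32 (adjusted p = 0.0122) and -0.19 ± 0.05 in TC71 (adjusted p = 0.0176). Another set with the same 14 symbols gave 0.42 ± 0.08 and 0.64 ± 0.08, both called higher, so these 2 sets moved in opposite directions. The remaining sets with these symbols were not called in either line. They gave -0.04, 0.09 and -0.02 in TC32 and -0.02, 0.02 and 0.11 in TC71. The lower call was lost under 2 of 22 alternatives in TC32 and 7 of 22 in TC71, among them the omission of TC71 mithramycin replicate 2 or 3 or control replicate 3 (-0.19 to -0.18).

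Set IDs ending in _x_at or _s_at mark probes that also match other transcripts, and they were set apart from the others. Of 9 _x_at sets, 6 were called higher in each line, where 24% of all _x_at sets were called higher in TC32 and 15.3% in TC71. Of 4 _s_at sets, 2 were called higher in each line (21.6% and 17.2% of all _s_at sets). Of the 38 other sets, 11 were called higher in TC32 and 12 in TC71 (18.3% and 13.6% of all such sets), with median differences of 0.18 and 0.16. The kind of set went with level: 8 of the 13 _x_at and _s_at sets had a mean level of at least 6, and 3 of the 38 others did. Among the 11 sets with a mean of at least 6, 8 were called higher in each line, where 28.2% and 24.3% of all such sets were called. Among the 40 dimmer sets, 11 and 12 were called higher, where 16% and 10.7% of all such sets were called. The parts of level and of shared probes in this pattern were not tested.

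**Figure D3:**
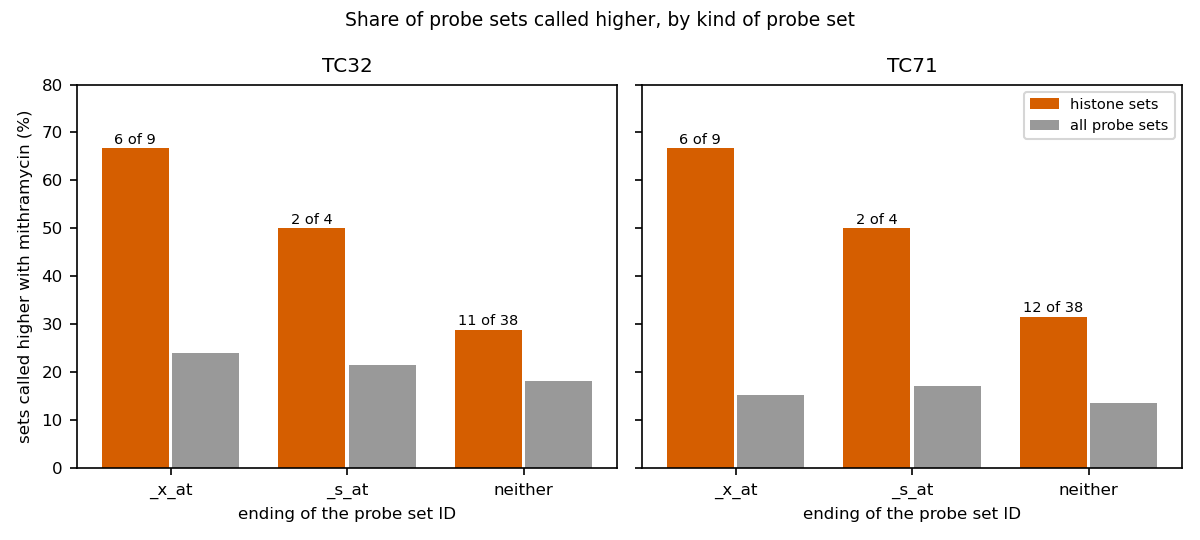
Bars give the percentage of probe sets called higher with mithramycin, for the histone sets (with the count above each bar) and for all sets of the same kind, in TC32 and in TC71. Of the histone _x_at sets 6 of 9 were called higher in each line, and of the sets ending in neither 11 of 38 in TC32 and 12 of 38 in TC71.

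Many of these sets lay low on the arrays. On every array, 20 of the 51 lay below that array's median and 16 above it. Of the sets called higher, 7 in TC32 and 8 in TC71 had all control arrays below the array medians. With no detection calls in hand, a low level cannot be told from background here.

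The size of the response differed between the lines for 2 sets. The TC71 difference minus the TC32 difference was called higher for 1 set, H3C1, where 4.38% of all sets were called higher, and lower for 1, H2BC12, where 2.48% were called lower. For H3C1 it was 0.75 ± 0.16 (adjusted p = 0.0119), from the rise of 1.21 in TC71 and of 0.46 in TC32. For H2BC12 it was -0.42 ± 0.11 (adjusted p = 0.0334), from rises of 0.28 in TC71 and 0.70 in TC32. The call for H2BC12 was lost under 15 of 22 other settings, including 10 of the 12 that left out 1 array, while that for H3C1 was lost under 1 of 21, the beta-actin covariate. The median over the 51 sets was -0.02, beside -0.01 for all sets. Its sign turned when values were centred on the hybridization controls, where it was 0.22 in the histone sets and 0.22 in all sets.

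Without drug, most H2B sets already read higher in TC71 than in TC32. Of the 51 sets, 23 were called higher in TC71 controls than in TC32 controls and 6 lower, where 20.7% of all sets were called higher and 21.9% lower. In the H2B class 12 of 15 were called higher and none lower, with a median difference of 0.81 (TC71 minus TC32). Of the 5 sets with several H2B symbols, 3 were called higher and 1 lower, a set shared by H2BC8 and H2BC11 (-0.54). H2AC6 differed most, with 7.38, 7.37 and 7.38 in TC71 controls, against 4.78, 5.25 and 4.68 in TC32 controls, a difference of 2.47 ± 0.17 (adjusted p = 3.7e-08). The groups lay far apart, and the same set gave differences with mithramycin of 0.24 ± 0.17 in TC32 and 0.23 ± 0.17 in TC71, neither called. The beta-actin difference was larger on every TC71 control array than on the TC32 control arrays. With it as a covariate, 19 of the 51 sets were higher in TC71 controls and 4 lower (16.1% and 14.4% of all sets).

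The control levels of H2BC4, H2BC5 and H2BC12 given above were higher in TC71 by 1.95 ± 0.10, 1.78 ± 0.08 and 1.68 ± 0.08, and the groups did not overlap. H1-2 had 8.81, 8.44 and 8.63 in TC71 controls, against 7.38, 7.07 and 7.15 in TC32 controls, and was higher by 1.43 ± 0.10 (adjusted p = 5.37e-08). H2BC12L, H2BC6 and H4C8 were higher by 1.37, 1.21 and 1.17. The 6 sets called lower in TC71 belonged to H2AC8 (-1.06), H4C4 (-0.67), H2AC16 (-0.64), H1-3 (-0.46), H1-5 (-0.42) and H3C3 (-0.40).

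**Figure D4:**
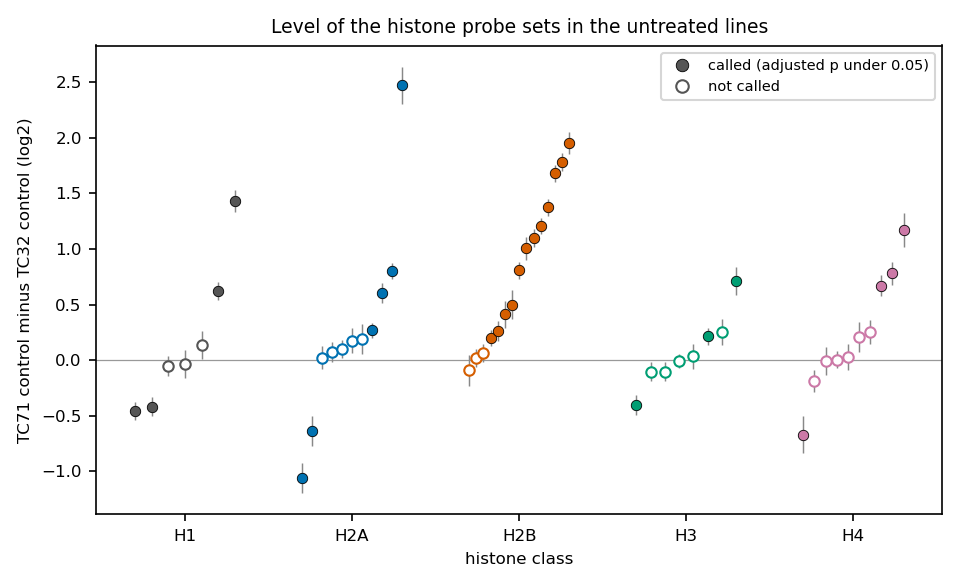
TC71 control minus TC32 control (log2, ± SE) for the 51 histone probe sets, by class and ordered within each class; filled points were called. In H2B, 12 of 15 sets were called higher in TC71, up to 1.95, and in H2A the points span from -1.06 to 2.47.

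Promoters in the RefSeq table were found for 40 of the 45 genes. H2AC5P, H2BC12L, H3C11, H4C1 and H4C10P had none there. The octamer ATTTGCAT stood in 16 of 40 (40.0%) histone promoters, where 1.80% of all 27305 promoters of the same 300 bases held it, on either strand. By class it was in 6 of 8 H2A and 10 of 13 H2B promoters and in none of H1, H3 or H4. The windows of H2AC6 and H2BC4, of H2AC14 and H2BC14, and of H2AC17 and H2BC17 overlap, and each held it. One match can thus count for both classes, so these promoters are not independent. TATAAA was in 27 (67.5%, beside 12.0% of all promoters) and CCAAT in 35 (87.5%, beside 35.7%). The GC box GGGCGG was in 8 (20.0%, beside 44.6%), of which 4 were in the 6 H1 promoters, none in the 8 H2A promoters and 1, that of H2BC21, in the 13 H2B promoters. The median GC content was 42.8%, with a range of 36.7% to 58.0%, beside 58.3% for all promoters. These are letter matches and do not show binding.

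Among the 21 genes with a promoter that were called higher in at least 1 line, 2 promoters held a GC box and the median GC content was 42.3%. Among the 19 others, 6 held a GC box and the median was 46.0%. The octamer was in 9 of the 21 and 7 of the 19. These counts are given as a description and were not tested.

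Neighbouring histone genes were set side by side at the set of each gene with the highest mean. Of 23 pairs of neighbours, TC32 had 2 with both genes called higher, 16 with 1 and 5 with none. TC71 had 2 with both, 10 with 1 and 11 with none. Over all single genes at their brightest set, 23.1% were called higher in TC32 and 17% in TC71. The shares over neighbouring pairs of all genes were not computed, so the pair counts have no background to be read against. Direction was read only for pairs in which both genes had a promoter in the RefSeq table, so other pairs of this kind may be missed. In 6 of the pairs read, the genes are transcribed away from each other. Of these, 1 pair had both genes called higher in TC32 (H3C7 and H2BC9) and a different 1 in TC71 (H2AC17 and H2BC17). In each line the other 5 had 1 gene called higher. H2AC17 rose by 1.02 in TC32 and 0.74 in TC71, while H2BC17, its divergent neighbour, gave 0.06 (not called) and 0.31 (called). H2BC4 rose by 0.60 and 0.83 beside H2AC6, at 0.24 and 0.23. H1-4, at -0.20 and -0.32, lies next to H2BC5, at 0.71 and 0.63.

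Genes that make, cut and degrade histone mRNA moved in both directions. Of 28 measured genes at the brightest set of each, 9 were called higher and 10 lower in each line. Over all genes, 23.1% were called higher in TC32 and 18.5% lower, and in TC71 17% and 15.3%. The median difference was -0.06 in TC32 and 0.05 in TC71. NPAT, the coactivator of histone transcription, had 6.20, 6.44 and 6.20 with mithramycin in TC32, against 7.70, 7.65 and 7.63 in controls, and 6.61, 6.57 and 6.60 in TC71, against 7.34, 7.61 and 7.32 in controls. It fell by 1.38 ± 0.09 in TC32 (adjusted p = 8.02e-08) and by 0.83 ± 0.09 in TC71 (adjusted p = 1.18e-05). H2BC21, H2AC17, H3C1, H2BC4, H2BC5 and H2BC12 rose in both lines on the same arrays.

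SLBP, which binds the stem-loop, had 9.98, 10.22 and 10.19 with mithramycin in TC32, against 10.69, 10.76 and 10.63 in controls, and 10.75, 10.81 and 10.76 in TC71, against 11.01, 11.11 and 11.02 in controls. It fell by 0.57 ± 0.07 (adjusted p = 5.37e-05) and 0.27 ± 0.07 (adjusted p = 0.0146), the TC71 call being lost without TC71 control replicate 2 (-0.24). SYMPK, a scaffold of the cleavage complex, fell in TC32 by 1.09 and in TC71 by 0.63. TUT4, which adds uridines to histone mRNA before its decay, dropped by 0.75 and 0.91. NCBP2, of the cap-binding complex, rose by 0.43 and 0.41, CDK2, the kinase partner of cyclin E, by 0.38 and 0.40, and CDK9, of the elongation factor P-TEFb, by 0.26 and 0.40. The TC32 call of CDK9 was lost without mithramycin replicate 2 (0.21) or control replicate 3 (0.24).

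**Figure D5:**
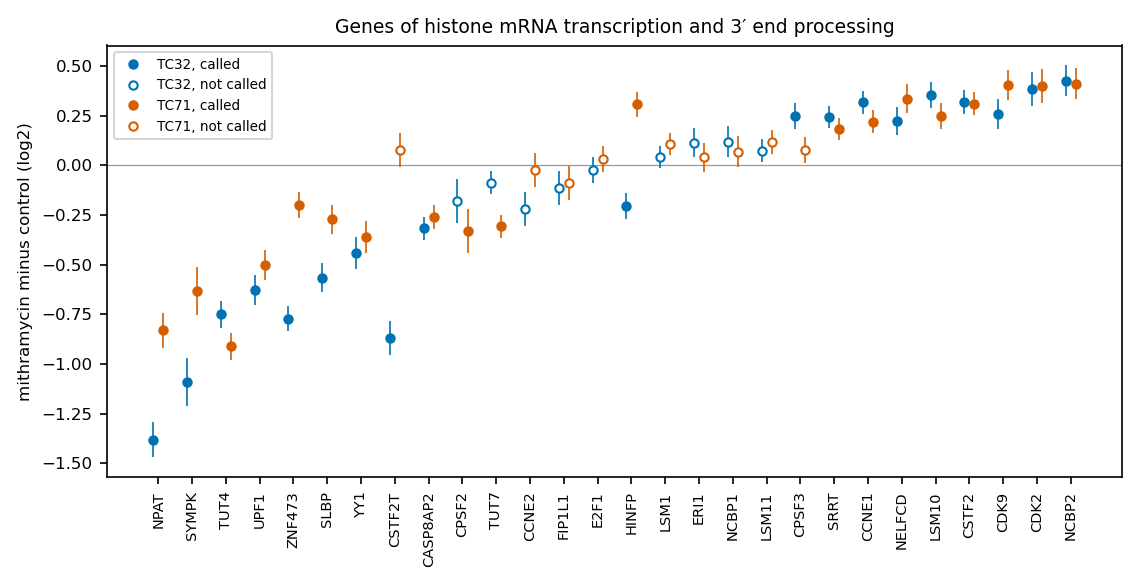
Mithramycin minus control (log2, ± SE) for 28 genes of histone mRNA transcription and 3′ end processing, ordered by the mean of both lines, with filled points for called genes. NPAT lies lowest, at -1.38 in TC32 and -0.83 in TC71, and NCBP2 highest, at 0.43 and 0.41.

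Chaperones, which carry histones to DNA, were also split: 6 of 20 were called higher and 9 lower in TC32 (23.1% and 18.5% of all genes), and 6 and 7 in TC71 (17% and 15.3%). CHAF1A, the large subunit of the complex that deposits H3 and H4 behind the replication fork, had 7.99, 8.04 and 7.95 with mithramycin in TC32, against 9.33, 9.36 and 9.39 in controls, and 7.72, 7.69 and 7.68 in TC71, against 8.58, 8.58 and 8.56 in controls. It fell by 1.37 ± 0.06 and 0.88 ± 0.06 (adjusted p = 1.98e-09 and 1.28e-07). HJURP, the chaperone of CENPA, fell by 1.07 and 0.51, and HIRA, the chaperone of H3.3, by 0.74 and 0.97. The TC32 call of HIRA was lost without mithramycin replicate 3, control replicate 1 or control replicate 3 (-0.74 to -0.53). ASF1B, which hands H3 and H4 to other chaperones, rose by 0.34 and 0.35, and SSRP1 and SUPT16H, the subunits of FACT, rose by 0.29 and 0.31 and by 0.28 and 0.27.

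Of 29 genes of S phase and DNA replication, 2 were called higher and 7 lower in TC32 (23.1% and 18.5% of all genes), and 3 and 5 in TC71 (17% and 15.3%), with medians of -0.02 and -0.01. RFC3, of the clamp loader, fell in TC32 by 0.97 and in TC71 by 0.81, PRIM1, a primase subunit, by 0.40 and 0.65, and POLE2, of DNA polymerase epsilon, by 0.34 and 0.49. GINS4 rose by 0.41 and 0.31. TK1 rose by 0.26 in TC32 and gave 0.20 in TC71, a call lost under 13 of 23 alternatives, among them the omission of each of the 6 TC71 arrays. ORC1 gave 0.05 in TC32 (not called) and rose by 0.27 in TC71, a call lost without mithramycin replicate 1 (0.22) or control replicate 1 (0.25). PCNA, the sliding clamp of replication, which was named here after its values were seen, gave 0.01 and 0.06, and neither was called.

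Among genes of mRNA polyadenylation, 6 of 12 were called higher and 2 lower in TC32 (23.1% and 18.5% of all genes), and 5 and 0 in TC71 (17% and 15.3%). PABPN1, which coats new poly(A) tails, rose by 1.25 ± 0.11 and 1.40 ± 0.11 (adjusted p = 1.55e-06 and 7.93e-07). PCF11 rose by 0.94 and 1.17 and CLP1 by 0.72 and 0.49, both of a cleavage factor. CPSF4 and CSTF1 fell by 0.26 each in TC32 and gave -0.07 and 0.16 in TC71, not called. Leaving out 1 array ended the TC32 call of CPSF4 for 4 arrays (mithramycin replicates 2 and 3, control replicates 2 and 3) and that of CSTF1 for 2 (mithramycin replicate 3, control replicate 2).

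Histone variants that are made outside S phase were measured for 9 of 14 genes. In TC32, 3 were called higher and 2 lower (23.1% and 18.5% of all genes), and in TC71 1 and 1 (17% and 15.3%). H2AJ rose in TC32 by 0.49 and in TC71 by 0.38, and MACROH2A2, of an H2A with an added domain, fell by 0.30 and 0.41. CENPA, the centromere H3, fell by 0.48 in TC32 and gave -0.12 in TC71, not called. H1-10 rose in TC32 by 0.23, and H2AZ2 gave 0.18 there, a call lost under 10 of 22 alternatives, among them the omission of TC32 mithramycin replicate 1 or 3 or control replicate 2 or 3 (0.17 to 0.18). Both gave 0.13 in TC71, not called.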

How the data were processed

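RNA of 12 samples was hybridized to 1 array each, and nothing beyond the labels says how independent the 3 biological replicates of a group were, so p-values measure the spread between these samples. The authors deposited log2 values per probe set, made with RMA (background correction, quantile normalization, summary of probes) per the submitters' processing notes. The sources used here do not give the RMA version, the probe definitions or the priming of the labelling. Whether histone mRNAs without a poly(A) tail were read depends on that priming and is unknown here. No detection calls were used, so signal over background is unknown, and the number of arrays limits the precision. Means of sets served to choose sets (the highest of a class or gene), and levels of different sets are not comparable as amounts of transcript. RMA's quantile step gives each array nearly the same distribution of values, so changes are relative.

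Here, limma 3.58.1 in R 4.3.3 was fitted to all 54613 non-control sets over the 4 groups, with Benjamini-Hochberg adjustment over all of them, and was first tested on simulated data. Genes were named through the platform annotation, which can be old. The members and lists were chosen with earlier results of these data known. Genes named with values were, per class, the set with the highest mean; every histone gene with a called change of at least 0.58 in a line; the sets called for the difference between lines; the 8 with the largest called difference between untreated lines; and from each list up to 3 called genes in each direction, with SLBP and NPAT always. Other histone genes named were picked after their values were seen. Promoters are RefSeq's (GRCh38.p14). Alternatives were other scalings, variance settings, filters on dim or shared sets, the brightest set per gene, fits on the compared groups alone, a beta-actin covariate, a replicate block and leaving out each array.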

Additional observations from a re-analysis of the deposited data

Results flagged for a closer look

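A test of the TC71 difference minus the TC32 difference by limma singled out 4 histone sets. H3C1 had a value of 0.75, a larger rise in TC71, and the call was lost under 1 of 21 alternatives, the beta-actin covariate (0.72). H2BC12 had -0.42, a smaller rise in TC71, and the call was lost under 15 of 22 alternatives, 10 of them the omission of 1 array, with values between -0.49 and -0.35 over the omissions.

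The brightest set shared by H2AC18 and H2AC19 had 0.39, from rises of 1.23 in TC71 and 0.84 in TC32, and the call was lost under 15 of 20 alternatives. A set shared by H2BC8 and H2BC11 had -0.53, with 3.93, 4.11 and 4.19 with mithramycin in TC71, against 3.99, 4.0 and 4.17 in controls, and 4.83, 4.70 and 4.74 with mithramycin in TC32, against 4.26, 4.18 and 4.17 in controls. Its groups overlapped in TC71 and lay apart in TC32, and the call was lost under 1 of 19 alternatives.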

How the results depend on the processing

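Counts of histone sets past the threshold moved with the processing, while the median differences with mithramycin stayed above 0 in both lines under every alternative, and no called result changed direction. The median of the difference between lines, -0.02, was 0.22 when centred on the hybridization controls and 0.0004 with the beta-actin covariate. Centred on the hybridization controls, 7 sets were higher and 2 lower in TC32 (5.29% and 21.2% of all sets), and 0 were lower in TC71 (9.32%). For the difference between lines, 4 were higher and 0 lower (10.3% and 0.745% of all sets). The share of calls that were higher over all sets was then 20.0% in TC32, where it was 53.6% as deposited, and 64.7% in TC71, where it was 51.5%. Centred on the median of all sets, chosen after seeing the data, it was 42.5% and 41.8%. There, 2 histone sets were lower in TC32 (18.7% of all sets) and 0 for the difference (2.18%). Centred on housekeeping genes, the share of calls that were higher was 40.6% in TC71, and 0 histone sets were lower for the difference (2.1% of all sets). With the beta-actin covariate that share was 42.3% in TC71, where 10 histone sets were higher and 0 lower (7.34% and 10% of all sets). For the difference 0 were called in either direction (2.62% of all sets higher and 1.46% lower). These are limma calls, and the cause of each shift was not tested.

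With only sets of a mean of at least 6, 11 histone sets were left: 9 were higher and 1 lower in TC32, 8 and 0 in TC71, 0 higher for the difference, and 11 and 0 between untreated lines. Of all the sets left, 34.8% were higher and 35% lower in TC32, and 32.3% and 29.9% in TC71. For the difference 13.6% were higher, and between untreated lines 41.5% were higher and 38% lower. Without _x_at and _s_at sets, 10 of 38 were higher in TC32, 12 in TC71 and 11 between untreated lines. Of all the sets then left, 17.5%, 12.9% and 18.8% were higher. One set was lower in TC32 after a second quantile normalization, at the brightest set per gene and with an intensity trend (1 each), and 2 were lower for the difference at the brightest set per gene. Of all sets in those fits, 16.3%, 19.4% and 17.6% were lower in TC32, and 3.72% for the difference. Without the pseudogene and H2BC12L sets, also chosen after seeing the data, 17 were higher in TC32 and 19 in TC71, where 19.4% and 14.5% of all sets were.

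Leaving out 1 array gave 16 to 19 sets higher and 0 lower in TC32, 13 to 21 higher and 1 lower in TC71, 1 to 2 higher and 0 to 1 lower for the difference, and 19 to 23 higher and 6 lower between untreated lines. The 13 came without TC71 control replicate 1. Of all sets, 15.8% to 20.1% were higher in TC32 and 11.2% to 15.8% in TC71. For the difference it was 3.26% to 4.71%, and between untreated lines 19.2% to 21.3%. Of all sets, 15.2% to 17% were lower in TC32, 11.8% to 14.3% in TC71 and 19.5% to 22.7% between untreated lines. Deviations of same-numbered arrays from their group means correlated weakly (r of 0.07, 0.21 and 0.03 in TC32 and -0.09, -0.02 and -0.03 in TC71). Arrays of different numbers were not compared, so these values cannot settle whether the samples were paired. With the replicate block, 22 sets were higher in TC32, 19 in TC71, 2 were higher and 0 lower for the difference, and 23 were higher and 6 lower between untreated lines. Of all sets, 18.9% were then higher in TC32 and 13.7% in TC71. For the difference 3.42% were higher and 1.96% lower, and between untreated lines 20.7% and 21.7%.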
